A study of Mus musculus with 8 samples.

Results

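The genes described here encode proteins of the spliceosome and other RNA-binding splicing factors, and their promoter H3K9ac was measured in BM cells of *NUP98-HOXD13-tg* mice with and without curcumin. They were chosen by symbol alone, as the protein-coding genes of GENCODE M21 (mm10) whose names begin with *Srsf*, *Snrp*, *Sf3a*, *Sf3b*, *Hnrnp* or *Prpf* and the genes *U2af1*, *U2af2* and *Zrsr2*. This rule gave 68 of 21938 genes, of which 3 belong to the U2AF family, 9 to the SF3A and SF3B complexes, 12 to the Sm and snRNP proteins, 11 to the SR proteins, 13 to the PRPF factors and 20 to the hnRNPs. The rule uses no measured value, although it was set with earlier results of these data known.

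The spliceosome removes introns from pre-mRNA. Its snRNPs are small nuclear RNAs held in rings of Sm proteins, and the U2 snRNP binds the branch site of the intron through SF3A and SF3B while U2AF binds the intron's end. PRPF factors build the U4/U6.U5 particle and drive its remodelling, SR proteins bind exons and mostly favour their inclusion, and hnRNPs coat the transcript and often oppose it. *SF3B1*, *SRSF2*, *U2AF1* and *ZRSR2* are recurrently mutated in human MDS. H3K9ac, the acetylation of lysine 9 of histone H3, is found at active promoters.

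Frozen whole BM cells of C57BL/6 mice were used, and all groups carried the *NUP98-HOXD13* transgene, a model of MDS that progresses to AML. The groups differed in *Gfi1*, a repressor of transcription in blood cells, which was present as *GFI1-36S*, as the variant *GFI1-36N* or at reduced expression (*GFI1-KD*). For each genotype, 1 library came from vehicle (the labels say no curcumin, and controls were given DMSO) and 1 from curcumin at 20 mg/kg, injected i.p. every week. Age and sex are not given in the labels. With 1 library per group, a change within a genotype has no replicate check and compares 2 libraries. The only test is of curcumin over the 3 pairs together, and in whole BM fewer acetylated cells and less acetylation per cell cannot be told apart.

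The lists held between 20354 and 49213 peaks, and the median summit between 24 and 36 fragments. For *GFI1-36S*, list names and labels disagree on which mouse received curcumin. The labels were followed, so every *GFI1-36S* change takes the other sign if the list names are right, and the values with the treatments exchanged are given where a result turns on it. For *GFI1-36N* the list names, but not the labels, give a different zygosity of the knock-in for the vehicle and the curcumin mouse. The *GFI1-36S* curcumin library stood apart. It had a peak at 0 of 18 neutrophil, 2 of 13 erythroid and 2 of 12 stem and progenitor promoters, against 10 to 17, 6 to 13 and 10 to 12 in the other libraries. It had a peak at 14 of 14 T-cell promoters, against 3 to 8 in the others, and at 3 of 6 Y-linked promoters, against 0. The part of this difference in the *GFI1-36S* results was not tested.

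The promoters of 4 genes mutated in MDS and those of *Srsf5* (highest mean rank) and *Snrpe* (no peak) are shown first. They are examples from both ends of the scale of peak ranks described in the following paragraphs. Each line gives the 250 bases before the RefSeq start of the gene in GRCm38.p6 (mm10), 5′ to 3′ on the gene's strand. Capitals mark matches to the searched motifs on either strand, which in these genes were SP (GGGCGG), ETS (CCGGAAG), NRF1, the CCAAT box (CCAAT) and the TATA box (TATAAA).
*Sf3b1*, chr1:55027479-55027728, minus strand: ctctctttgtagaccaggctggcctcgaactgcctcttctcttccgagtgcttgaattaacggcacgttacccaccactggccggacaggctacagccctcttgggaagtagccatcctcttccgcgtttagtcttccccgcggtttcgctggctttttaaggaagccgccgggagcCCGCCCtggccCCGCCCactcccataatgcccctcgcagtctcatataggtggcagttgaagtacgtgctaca
*Srsf2*, chr11:116853095-116853344, minus strand: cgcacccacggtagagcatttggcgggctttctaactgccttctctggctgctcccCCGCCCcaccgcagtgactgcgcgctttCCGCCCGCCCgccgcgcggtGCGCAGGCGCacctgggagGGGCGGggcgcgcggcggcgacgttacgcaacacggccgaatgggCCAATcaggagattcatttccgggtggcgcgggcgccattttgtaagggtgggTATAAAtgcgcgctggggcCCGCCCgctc
*U2af1*, chr17:31658765-31659014, minus strand: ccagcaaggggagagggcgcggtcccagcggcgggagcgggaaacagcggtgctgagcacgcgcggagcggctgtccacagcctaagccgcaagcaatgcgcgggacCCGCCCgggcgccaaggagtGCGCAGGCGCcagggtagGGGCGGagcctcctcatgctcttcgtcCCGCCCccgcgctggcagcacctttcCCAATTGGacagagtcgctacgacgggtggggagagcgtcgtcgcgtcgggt
*Zrsr2*, chrX:163958667-163958916, minus strand: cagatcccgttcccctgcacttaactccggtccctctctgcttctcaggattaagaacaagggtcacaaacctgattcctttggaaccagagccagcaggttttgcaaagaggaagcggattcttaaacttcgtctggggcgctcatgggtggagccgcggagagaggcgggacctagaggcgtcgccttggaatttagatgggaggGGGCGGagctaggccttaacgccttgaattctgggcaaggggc
*Srsf5*, chr12:80945249-80945498, plus strand: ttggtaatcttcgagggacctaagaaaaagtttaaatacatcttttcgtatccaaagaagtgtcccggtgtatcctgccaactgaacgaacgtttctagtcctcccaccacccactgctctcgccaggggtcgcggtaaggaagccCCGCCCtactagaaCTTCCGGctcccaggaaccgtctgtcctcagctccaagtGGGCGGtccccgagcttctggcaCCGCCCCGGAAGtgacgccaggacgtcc
*Snrpe*, chr1:133610281-133610530, minus strand: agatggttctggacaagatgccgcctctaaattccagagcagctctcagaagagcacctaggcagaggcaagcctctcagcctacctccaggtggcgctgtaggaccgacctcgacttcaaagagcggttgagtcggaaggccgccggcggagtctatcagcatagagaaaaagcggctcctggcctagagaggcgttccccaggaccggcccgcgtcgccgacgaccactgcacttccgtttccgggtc

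*Srsf2*, an SR protein gene, had 8 matches, 5 of them to SP and 1 each to NRF1, the CCAAT box and the TATA box. *U2af1* had 6, *Srsf5* 5, *Sf3b1* 2 and *Zrsr2* 1. *Snrpe* had 0 in these 250 bases and 2 matches to ETS when the 50 bases after the start were included. RefSeq promoters covering 250 bases before to 50 after the start were matched for 59 of the 68 genes. The ETS motif was found in 32.2% of these 59, against 18.3% of the 9821 matched promoters of all genes with H3K9ac there in any library. The CCAAT box was in 49.2% against 38.4%, NRF1 in 16.9% against 10.6% and the TATA box in 10.2% against 6.85%. The shares for SP were closer together, 67.8% and 64.4%. Also searched were the E-box (CACGTG), with 13.6% against 10.3%, the CRE (TGACGTCA), with 3.39% against 3.28%, and YY1 (AAGATGGCG), with 3.39% against 3.16%. CpG dinucleotides were frequent in the splicing factor promoters. Their median ratio of observed to expected CpG was 0.92, against 0.762 over all, although the median GC content was alike at 60% and 60.7%. Matches can share bases, as for the CCAAT matches on opposite strands of *U2af1* and an SP and an ETS match of *Srsf5*, and they are a description of letters and not of binding.

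H3K9ac was present at nearly all splicing factor promoters and was high at most of them. A promoter was taken as 1 kb on each side of any TSS. Its level is given as a rank, the percentile of the gene's strongest promoter peak by fold enrichment over the local background among all promoter peaks of that library, so that 100 is the strongest and 0 means no peak. A peak was present in all 6 libraries at 64 of the 68 genes (94.1%), against 9341 of all 12557 genes that had one in any library (74.4%). Of the 68 genes, 65 had a peak in any library, so the bases of these shares and of those that follow differ. The median of the mean rank over 6 libraries was 84.3, against 44.7 over those 12557 genes and 57.6 over the 9341. A mean rank over 90 was found for 27 of the 68 genes (39.7%) and for 6.51% of the 12557. Without the *GFI1-36S* curcumin library the median was 83.5, and the count with a peak in every library was again 64.

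**Figure D1:**
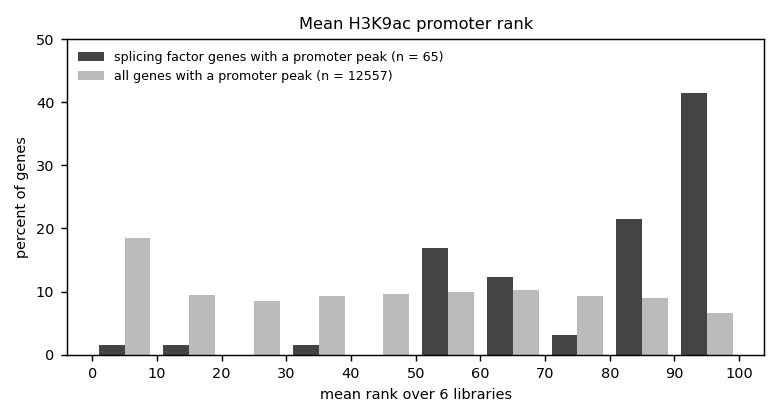
Percent of genes (y axis) by mean promoter rank over the 6 libraries (x axis, bins of 10 ranks) for the 65 splicing factor genes with a promoter peak (dark bars) and all 12557 genes with one (light bars). The top bin holds 41.5% of the splicing factor genes and 6.51% of all genes.

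The level differed between protein groups. The hnRNP genes were the highest, with a median mean rank of 96.0 and 13 of 20 over 90, followed by the U2AF family (94.1) and the SR proteins (93.8). The PRPF factors reached 81.5. The Sm and snRNP proteins (63.9) and the SF3A and SF3B subunits (63.4) were lower, with 2 genes over 90 in each. Within the SF3 complexes the spread was wide, from 0 for *Sf3b5* to 99.7 for *Sf3b1*. The 0 rests on the GENCODE TSS of *Sf3b5*, and the peak in its RefSeq gene is described below. Apart from *Sf3b5* the lowest was *Sf3b6* at 52.1. Among other spliceosome genes outside the symbol rule, such as the LSm proteins and DEAH-box helicases, 47 of 50 had a peak in all 6 libraries, and the median mean rank was 67.9. Among other splicing regulators, such as *Ptbp1* and the Clk kinases, these values were 34 of 38 and 87.2.

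**Figure D2:**
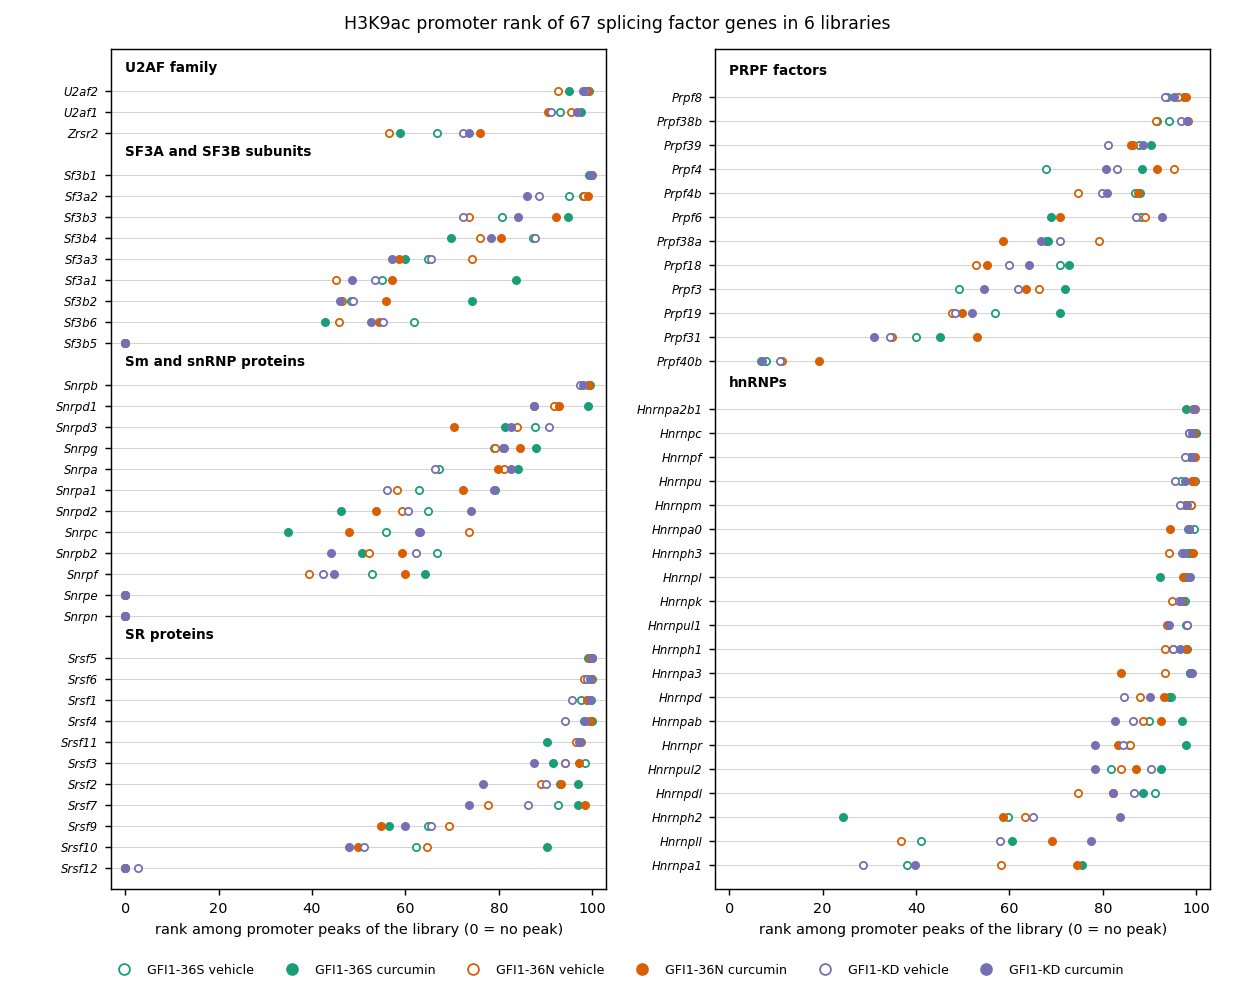
Rank of the strongest promoter peak (x axis, 0 to 100, 0 = no peak) of 67 of the 68 genes (rows, grouped by protein family and ordered by mean rank) in the 6 libraries, with open circles for vehicle and filled circles for curcumin. Genes with a mean rank over 90 form tight clusters at the right edge, and genes of middle rank are spread more widely, over 59.4 ranks for *Hnrnph2*.

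The 5 highest genes were *Srsf5*, *Sf3b1*, *Srsf6*, *Hnrnpa2b1* and *Hnrnpc*, with mean ranks from 99.2 to 99.7. *Sf3b1* (chr1:54985169-55027481), the largest SF3B subunit, had ranks of 99.8 and 99.3 with vehicle and curcumin in *GFI1-36S*, 99.9 and 99.7 in *-36N* and 99.8 and 99.7 in *-KD* libraries. Its summit held 264 and 175, 302 and 275, and 361 and 269 fragments in the same order. The peak was 1393 bp wide in the *GFI1-36S* curcumin library and 2920 to 4573 bp in the others, with the summit 297 to 440 bp downstream of the TSS. No library departed from the top percentile.

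*Srsf2* (chr11:116849901-116853094) had ranks of 93.1 and 97.0 in *GFI1-36S*, 88.9 and 93.3 in *-36N* and 90.1 and 76.5 in *-KD* libraries with vehicle and curcumin. The *GFI1-KD* curcumin library was the lowest of the 6. *U2af1* (chr17:31647081-31658892), the small U2AF subunit that reads the last bases of the intron, had 93.1 and 97.7, 95.4 and 90.4, and 91.1 and 96.7. *U2af2* (chr7:5062143-5079938), its partner that binds the polypyrimidine tract, had 99.3 and 94.9, 92.6 and 99.1, and 98.5 and 98.0. Neither U2AF subunit left the ranks above 90.

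*Zrsr2* (chrX:163935443-163958661), the related factor of minor introns, was lower, with ranks of 66.7 and 58.8 in *GFI1-36S*, 56.6 and 76.0 in *-36N* and 72.3 and 73.5 in *-KD* libraries. Of the genes mutated in MDS it was the only one below 75 in most libraries. *Prpf8* (chr11:75486816-75509449), which forms the heart of the U5 snRNP and is altered in some myeloid neoplasms, had 93.8 and 97.3, 96.1 and 97.8, and 93.3 and 95.2.

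At the low end, 3 genes had no promoter peak in any library and *Srsf12* had one only with *GFI1-KD* vehicle, at rank 2.69 and with 25 fragments at the summit. *Sf3b5*, a small SF3B subunit, carried a peak in its RefSeq gene in all 6 libraries. The nearest peak lay 2.45 to 2.63 kb from the only TSS in GENCODE (chr10, 13005343), whereas RefSeq places the start at 13008450. The strongest peak in the gene, which in both the *GFI1-36S* and *-KD* curcumin libraries was another one than the nearest, corresponded to the percentiles 46.7 to 56.7 of promoter peaks. With a window of 3 kb *Sf3b5* had a peak in all 6 libraries. *Snrpe*, which encodes a protein of the Sm ring, had none near it, and the nearest peak was 37.5 to 50.1 kb away in 5 libraries and 7.28 kb away with *GFI1-KD* curcumin. Black list regions were left out of the lists, and how well reads map at *Snrpe* was not examined. Its missing peak therefore need not mean missing acetylation. For *Snrpn* (chr7), an imprinted gene expressed mainly in brain, the nearest peak was 774 to 775 kb away. *Prpf40b*, a U1-associated factor, was the lowest gene with a peak in all libraries, at ranks from 6.71 to 19.2.

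The promoter peaks were also wide. Their median width was 2838 and 1697 bp in *GFI1-36S*, 2761 and 2933 bp in *-36N*, and 3382 and 2468 bp in *-KD* libraries with vehicle and curcumin. The medians over all promoters with a peak were 1795 and 1064, 1725 and 1769, and 1963 and 1541 bp. The summit lay downstream of the nearest TSS at 81.3% to 87.5% of the splicing factor promoters and at 77.4% to 79.3% of all, and its median position was 170 to 235 bp downstream. Of the 65 genes with a peak, 21 (32.3%) had a divergent neighbour within 1 kb that shared the peak. Over all genes, 14.5% had a divergent neighbour that close and 20.5% shared a peak with another gene. Among these pairs were *Hnrnpa1* with *Cbx5* (TSSs 616 bp apart) and *Hnrnpa2b1* with *Cbx3* (466 bp), both neighbours encoding heterochromatin protein 1 family members. Other pairs were *Hnrnph2* with *Gla* (54 bp), *Sf3a1* with *Ccdc157* (57 bp) and *Srsf7* with *Ttc39d* (155 bp). *Prpf4* shared its peak with *Cdc26* (155 bp) and *Srsf2* with *Mfsd11* (726 bp). For such genes the peak cannot be assigned to one of the neighbours.

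The comparison asks whether splicing factor promoters changed their place among promoters with curcumin, a natural inhibitor of histone acetyltransferases. As a group they stayed close to that place. A gain or loss of acetylation shared by all promoters would not show in these ranks, nor in the fragment ratios given below. Median changes in rank (curcumin minus vehicle) were 0.803 for *GFI1-36S*, 1.43 for *-36N* and -0.0372 for *-KD* libraries, while that over all genes with a promoter peak in the pair was -6.61, 1.89 and -2.34. Over the 9341 genes with a peak in all 6 libraries it was -5.85, 1.80 and -2.04. The rank depends on how many genes have a promoter peak in a library. These were 11377 and 9726 in *GFI1-36S*, 11333 and 11801 in *-36N* and 11766 and 11107 in *-KD* libraries with vehicle and curcumin. The part of this number and of the high level of the splicing factor genes in their contrast with all genes was not tested. Rank was lower with curcumin for 27 of 64 splicing factor genes (42.2%) in *GFI1-36S*, for 25 of 64 (39.1%) in *-36N* and 33 of 65 (50.8%) in *-KD* libraries. Over all genes these shares were 69.1%, 39.9% and 62.9%. With the *GFI1-36S* treatments exchanged, 57.8% of the splicing factor genes were lower in that pair, against 30.9% of all genes. No splicing factor promoter gained a peak and only *Srsf12* lost one, with *GFI1-KD* curcumin, whereas 18.2%, 7.57% and 7.92% of all genes had a peak in only 1 library of the 3 pairs.

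A change of at least 10 ranks was counted as a rise or a fall. In *GFI1-36S* libraries 14 genes rose (15% of all genes did) and 7 fell (41.4% of all). In *GFI1-36N* libraries 10 rose (19.3%) and 7 fell (11.3%), and in *GFI1-KD* libraries 7 rose (9.47%) and 4 fell (20.6%). Of the splicing factor genes, 10.9% fell in both the *GFI1-36S* and the *-36N* pair and 6.15% in the *-KD* pair, which is below the share of all genes for *GFI1-36S* and *-KD* and near it for *-36N*. With the *GFI1-36S* treatments exchanged, 14 genes (21.9%) fell in that pair against 15% of all genes, and 7 rose against 41.4%. A gene near the top of the scale cannot rise by 10, and all 27 genes with a mean rank over 90 moved by less than 10 in every pair, as did 76.3% of all genes over 90. In all, 35 of the 65 genes with a peak (53.8%) stayed under 10 in every pair, against 30.1% of all genes with one.

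**Figure D3:**
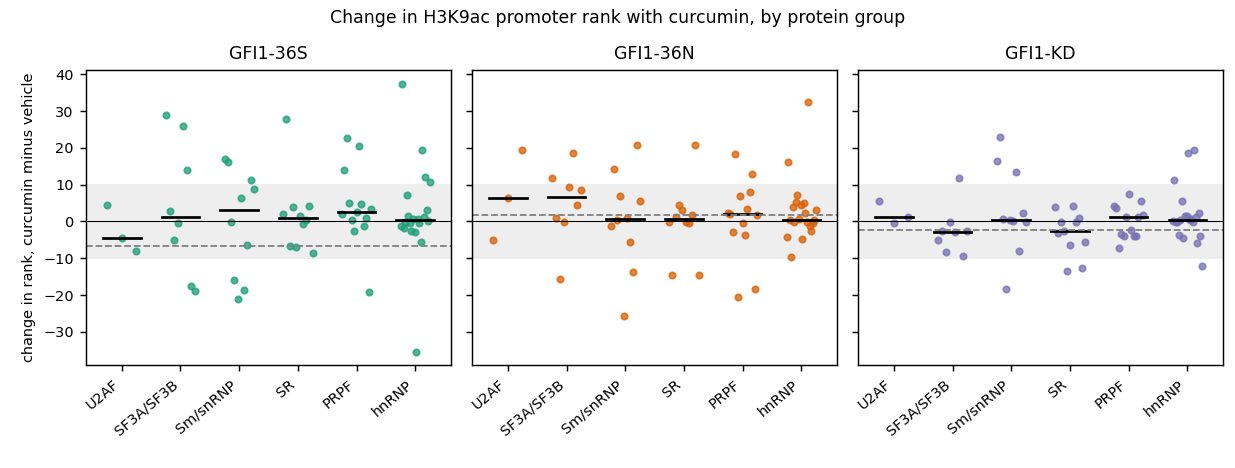
Change in promoter rank (y axis, curcumin minus vehicle, rank points) of each gene with a peak in the pair (points) by protein group (x axis) and genotype (panels). Black bars are group medians, the dashed line is the median of all genes (-6.61, 1.89 and -2.34), and the grey band marks changes under 10.

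By protein group, the medians lay between -4.38 (U2AF family in *GFI1-36S*) and 6.60 (SF3A and SF3B subunits in *-36N*). The hnRNPs, the largest group, had medians of 0.354, 0.49 and 0.487. The SF3A and SF3B subunits had 7 of 8 genes lower with curcumin in *GFI1-KD* libraries, but none fell by 10. SR proteins were lower for 8 of 11 genes there, with *Srsf2* and *Srsf7* past the limit. Of all genes in that pair 62.9% were lower and 20.6% fell by 10, so that neither group is read as particular. The other spliceosome genes had medians of -2.90, 1.31 and -0.323, and the other splicing regulators -0.0195, 0.216 and -0.375.

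Ranks do not show counting error, so summit fragments were worked back from the deposited fold enrichment and p of a peak. The ratio of curcumin to vehicle was divided by that of the median promoter (0.556 for *GFI1-36S*, 1.005 for *-36N* and 0.714 for *-KD* pairs), and its exact 95% interval covers counting error only. In *GFI1-36S* libraries the interval lay above 1 for 24 genes (16% of all promoters) and below 1 for *Hnrnph2* alone (13.4%). In *GFI1-36N* libraries it lay above 1 for *Hnrnpll*, *Sf3b3*, *Snrpf* and *Srsf7* (7.4%) and below 1 for *Prpf38a*, *Prpf6* and *Snrpc* (7.21%). In *GFI1-KD* libraries it lay above 1 for *Hnrnph2*, *Snrpa1* and *Srsf1* (7.59%) and below 1 for 0 genes (7.87%). Most rank changes of at least 10 in *GFI1-36N* and *-KD* libraries were therefore within the counting error of the summits, and no gene had an interval above 1 in all 3 pairs.

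*Hnrnpa1*, *Hnrnpll*, *Sf3b3* and *Snrpa1* rose by at least 10 ranks in all 3 pairs, which 0.617% of all genes did. With the *GFI1-36S* treatments exchanged these genes fell in that pair and 0 splicing factor genes (0.956% of all) rose in all 3. The same 4 genes made up those that rose in both *GFI1-36N* and *-KD* (2.38% of all). No splicing factor gene fell in all 3 pairs (1.68%) or in both *GFI1-36N* and *-KD* (2.79%).

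Curcumin was tested over the 3 pairs with limma, on the ranks of the 9341 genes with a peak in all 6 libraries and with genotype as a block, which leaves 2 residual degrees of freedom. After Benjamini-Hochberg adjustment over these genes, 0 of 64 splicing factor genes had an adjusted p under 0.05 (0% of all genes). At an unadjusted p under 0.05 there were 3, *Sf3b3*, *Hnrnpll* and *Hnrnpa1*, and 5.27% of all genes. The estimated changes were 14.8 ± 4.82 (SE) for *Sf3b3*, 23.7 ± 9.12 for *Hnrnpll*, 21.7 ± 9.27 for *Hnrnpa1* and 17.8 ± 8.51 for *Snrpa1*, each higher in 3 of 3 pairs and each with a limma adjusted p of 0.832. With the *GFI1-36S* treatments exchanged, limma called 0 splicing factor genes at an adjusted p (0% of all genes) and 0 at an unadjusted p under 0.05 (2.14%). Without the *GFI1-36S* pair these counts were 0 (0.0535% of all genes) and 2 (5.52%).

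*Sf3b3* (chr8:110810239-110846787), a scaffold subunit of SF3B, moved from 80.7 to 94.7 in *GFI1-36S*, from 73.6 to 92.2 in *-36N* and from 72.3 to 84.2 in *-KD* libraries. The curcumin library was the higher one in each pair, and the 3 curcumin ranks lay above all 3 vehicle ranks as labelled. With the *GFI1-36S* libraries exchanged they overlapped. The ratio of summit fragments relative to the median promoter was 1.42 (1.12 to 1.80), 1.25 (1.01 to 1.55) and 1.17 (0.948 to 1.43). Its peak is shared with *Cog4*, whose TSS is 258 bp away.

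*Snrpa1* (chr7:66059003-66074587), the U2 snRNP protein that pairs with *Snrpb2*, moved from 63.0 to 79.2, from 58.2 to 72.4 and from 56.0 to 78.9. Here too the curcumin and vehicle ranks did not overlap as labelled, and overlapped with the exchange. The ratios were 1.29 (0.987 to 1.68), 1.11 (0.877 to 1.40) and 1.33 (1.07 to 1.66), so that only the *GFI1-KD* interval excluded 1.

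*Hnrnpa1* (chr15:103240432-103246692), a repressor of exon inclusion, moved from 38.1 to 75.5, from 58.2 to 74.4 and from 28.6 to 39.9. Its level with *GFI1-KD* curcumin was below that with *-36N* vehicle. The ratios were 2.002 (1.62 to 2.48), 1.15 (0.926 to 1.43) and 0.945 (0.754 to 1.18). The *GFI1-KD* summit held 200 fragments with vehicle and 135 with curcumin, and the local background, by which fold enrichment is divided, was 13.1 and 7.09 fragments. Ranked by summit fragments instead, *Hnrnpa1* was lower by 6.21 ranks with curcumin in *GFI1-KD*.

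*Hnrnpll* (chr17:80029487-80062334), known for controlling exon skipping of *Ptprc* (CD45) in lymphocytes, moved from 41.0 to 60.5, from 36.8 to 69.2 and from 58.0 to 77.4. The ratios were 0.968 (0.735 to 1.27), 1.51 (1.16 to 1.96) and 0.872 (0.711 to 1.07). In *GFI1-KD* libraries the summit held 257 fragments with vehicle and 160 with curcumin, over a local background of 9.52 and 4.95 fragments. By summit fragments its rank changed by -8.65 in *GFI1-36S* and -12.2 in *-KD*, and by −log10 p by -1.58 in *-KD*. The rises of *Hnrnpll* in *GFI1-36S* and *-KD* libraries and of *Hnrnpa1* in *-KD* libraries are thus rises of the ratio to local background and not of summit fragments relative to other promoters.

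**Figure D4:**
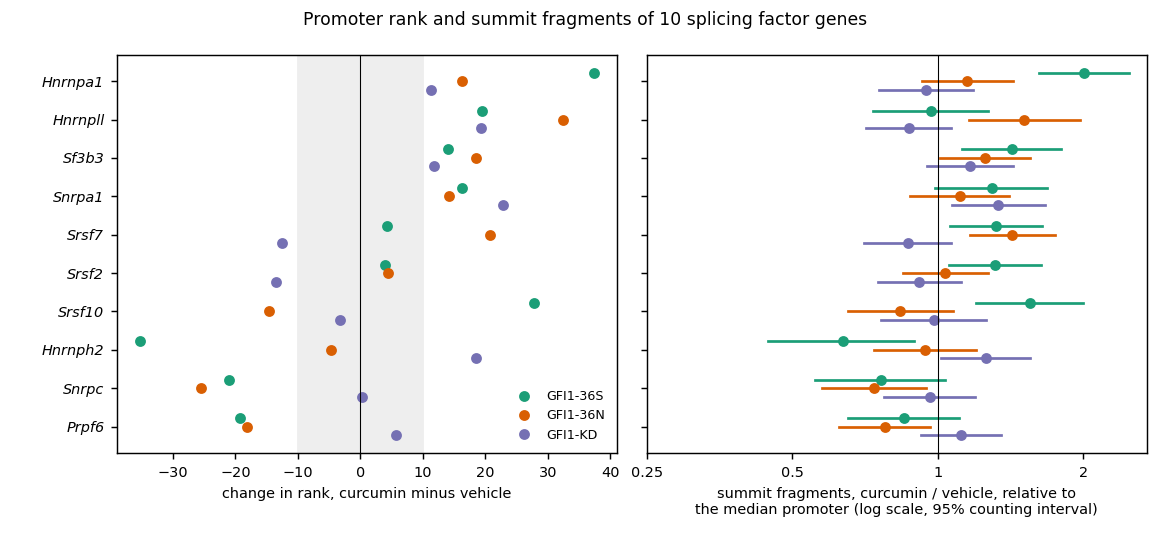
Left, change in promoter rank (x axis, curcumin minus vehicle, rank points, grey band under 10) and right, summit fragments with curcumin over vehicle relative to the median promoter (log scale, lines are exact 95% intervals for counting error) for 10 splicing factor genes (rows) in *GFI1-36S*, *-36N* and *-KD* pairs. *Sf3b3* and *Snrpa1* lie to the right of the reference lines for all 3 genotypes in both panels, whereas *Hnrnpa1* and *Hnrnpll* have fragment ratios below 1 in *GFI1-KD*.

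In *GFI1-36N* libraries the largest rises were those of *Hnrnpll*, *Srsf7* and *Snrpf*. *Srsf7* (chr17:80200080-80207307), an SR protein that also takes part in mRNA export, had ranks of 77.7 with vehicle and 98.4 with curcumin, and a ratio of 1.42 (1.16 to 1.75). In *GFI1-KD* libraries it moved the other way, from 86.2 to 73.5, with a ratio of 0.867 (0.704 to 1.07). It was the only splicing factor gene past the limit in opposite directions in these pairs (6.47% of all genes were). *Snrpf*, the Sm protein F, moved from 39.3 to 59.99 with a ratio of 1.31 (1.01 to 1.71) in *GFI1-36N*. *Zrsr2* rose by 19.4 in the same pair, but its ratio of 1.23 (0.972 to 1.56) was within counting error.

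The largest falls in *GFI1-36N* libraries were those of *Snrpc*, *Prpf38a* and *Prpf6*. *Snrpc*, the U1 snRNP protein that steadies pairing with the start of the intron, moved from 73.6 to 48.0 with a ratio of 0.739 (0.577 to 0.943). *Prpf38a*, a factor of spliceosome activation, moved from 79.1 to 58.5 with a ratio of 0.784 (0.621 to 0.99), and its peak is shared with *Orc1* 118 bp away. *Prpf6*, which bridges the parts of the tri-snRNP, moved from 88.9 to 70.7 with a ratio of 0.777 (0.625 to 0.965). These 3 were past counting error in this pair alone.

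In *GFI1-KD* libraries *Snrpa1*, *Hnrnpll* and *Hnrnph2* rose most, and *Snrpb2*, *Srsf2* and *Srsf7* fell most. *Hnrnph2*, an X-linked hnRNP that binds runs of G, moved from 65.1 to 83.7 with a ratio of 1.25 (1.02 to 1.55). *Snrpb2* moved from 62.2 to 44.0 with a ratio of 0.798 (0.622 to 1.02). *Srsf2* lost 13.5 ranks, and its ratio of 0.916 (0.751 to 1.11) did not leave counting error. *Srsf1*, the founding SR protein, had a ratio of 1.26 (1.06 to 1.49) while its rank moved only from 95.6 to 99.6, the upper end of the scale.

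In *GFI1-36S* libraries *Hnrnpa1*, *Sf3a1* and *Srsf10* rose most. *Sf3a1* (SF3A complex) moved from 54.9 to 83.7 with a ratio of 1.51 (1.16 to 1.98), and *Srsf10*, an SR-like repressor, from 62.4 to 90.2 with a ratio of 1.55 (1.20 to 1.998). The 3 largest falls were those of *Hnrnph2*, *Snrpc* and *Prpf6*. *Hnrnph2* moved from 59.6 to 24.3 with a ratio of 0.636 (0.446 to 0.893), and its summit held 133 fragments with vehicle and 47 with curcumin. Over the 333 X-linked genes with a promoter peak in this pair the median change was -10.8, against -6.61 over all genes. Of the X-linked genes 55.9% fell by at least 10, against 41.4% of all. Y-linked peaks were present in the curcumin library alone. *Snrpc* moved from 55.8 to 34.8 and *Prpf6* from 88.1 to 68.8, with ratios of 0.762 (0.556 to 1.04) and 0.851 (0.652 to 1.10). The neutrophil, erythroid, progenitor and T-cell marker promoters differed between the same libraries as given above, and their part in these changes was not tested.

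Between genotypes without curcumin, both comparisons share the *GFI1-36S* vehicle library. *GFI1-36N* was higher than *-36S* by at least 10 ranks for 6 genes (15.3% of all genes), namely *Hnrnpa1*, *Prpf3*, *Prpf38a*, *Prpf4*, *Snrpa* and *Snrpc*, and lower for 9 (17.5%), with *Zrsr2*, *Srsf7* and *Snrpf* among them. *GFI1-KD* was higher for *Hnrnpll*, *Prpf3* and *Prpf4* (16.4%) and lower for *Hnrnpd*, *Prpf18*, *Snrpf* and *Srsf10* (9.97%). *Prpf3* and *Prpf4*, partners in the U4/U6 particle, had vehicle ranks of 49.2 and 67.9 in *GFI1-36S*, 66.3 and 95.2 in *-36N*, and 61.8 and 83.1 in *-KD*. If the *GFI1-36S* lists are exchanged, the reference has 71.8 for *Prpf3* and 88.3 for *Prpf4*, and neither is higher by 10 in the other genotypes. Against that reference *GFI1-36N* was higher for 7 and lower for 16 splicing factor genes (39% and 15.5% of all), and *-KD* for 8 and 16 (44.2% and 15.2%). *Sf3b1*, *Srsf2*, *U2af1*, *U2af2* and *Prpf8* differed by less than 10 ranks in both comparisons as labelled.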

How the data were processed

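H3K9ac ChIP-seq peak lists of 6 libraries, 1 per group, were analysed. An input and a rabbit IgG sample, labelled as controls, were not used here. Adapter removal (Trim Galore), mapping to mm10 (BWA-MEM), peak calling per library (MACS2) and exclusion of ENCODE black list regions were done by the authors. The control of each list, the threshold and the handling of duplicates are not given in the sources used here. Fold enrichment, as deposited, is a ratio of summit fragments to local background, and the deposited −log10 p and −log10 q values are those of the peak caller. None is normalized between libraries, so peaks were ranked within a list.

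TSSs came from the basic set of GENCODE M21, and peaks overlapping the 1 kb on each side of any TSS by at least 1 bp were taken. Genes without a peak had rank 0. Fragments were recovered for 100% of peaks, within 0.002 on the −log10 p scale. PCR copies are not independent molecules, so intervals (exact, 95%) cover counting error only. Scripts were tested on simulated data and used Python 3.11.15, numpy 2.4.6, scipy 1.17.1, pandas 2.3.3, matplotlib and, for the fit over pairs, R 4.3.3 with limma 3.58.1 (mean trend). Sequences are from RefSeq.

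The genes named are the homologs of splicing genes mutated in myeloid disease, the extremes of mean rank and of change in each pair, genes without a peak in every library, those changed in both *GFI1-36N* and *-KD*, and their promoter partners. Other genes were named after their values were seen. The symbol rule and the lists were chosen with earlier results of these data known, and the rule itself reads no value. Alternatives were a minimum −log10 q of 5, ranks by −log10 p, lists shortened to 20354 top peaks, a 3 kb window, the summit inside the window, each peak ranked once, only genes with both peaks of a pair, and exchanged *GFI1-36S* treatments. Added after seeing the data were the comprehensive annotation, ranks by summit fragments, the limma fit over pairs and the omission of the *GFI1-36S* curcumin library. 1 gene is counted but its own values are not reported here.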

Additional observations from a re-analysis of the deposited data

Results flagged for a closer look

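For 5 splicing factor genes the rank moved by at least 10 in opposite directions with curcumin in a pair of genotypes. With 1 library per group the differences between genotypes were not tested. *Srsf7* changed by 20.7 in *GFI1-36N* and -12.6 in *-KD*, and *Srsf10* by 27.9 in *GFI1-36S* and -14.6 in *-36N*. Between *GFI1-36S* and *-KD*, *Hnrnph2* changed by -35.3 and 18.6, *Snrpd2* by -18.6 and 13.5, and *Hnrnpul2* by 10.8 and -12.0. *Snrpd2* shares its peak with *Qpctl* (TSSs 431 bp apart) and *Hnrnpul2* with *Ttc9c* (677 bp), and *Hnrnph2* and *Srsf7* share theirs as given above. The summit of the *Snrpd2* peak lay at -632 to -690 bp from its TSS. For *Hnrnph2* the intervals of the summit fragments lay on opposite sides of 1, at 0.446 to 0.893 in *GFI1-36S* and 1.02 to 1.55 in *-KD*. For *Srsf7* the interval excluded 1 in *GFI1-36N* (1.16 to 1.75) and not in *-KD* (0.704 to 1.07). If the treatments of the *GFI1-36S* libraries are exchanged, *Srsf10*, *Hnrnph2*, *Snrpd2* and *Hnrnpul2* move the same way in both of the genotypes named for them.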

How the results depend on the processing

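The summary results (share of genes ranked lower and median change in each pair, genes with a peak in all 6 libraries, median mean rank) were recomputed under the alternatives listed above, which gave 71 values. Of these, 69 stayed within the sampling range of the value over the genes or, for the count, within 1.5 times. That range treats the genes as independent draws. For genes with both peaks of a pair, the *GFI1-36S* and *-36N* values are the same by construction. The values outside the range came from exchanging the *GFI1-36S* treatments, with 57.8% of splicing factor genes ranked lower in that pair (30.9% of all genes) and a median change of -0.803. Of the 49 single changes of at least 10 ranks, 432 of 441 recomputed values kept their direction and moved by less than 10, 5 moved further and 4 turned. Those that turned were *Hnrnpll* by −log10 p in *GFI1-KD* (-1.58) and, by summit fragments, *Hnrnpll* in *GFI1-36S* (-8.65) and *-KD* (-12.2) and *Hnrnpa1* in *-KD* (-6.21). The 432 include 49 values for genes with both peaks of a pair, where a single change is the same by construction. The exchange of the *GFI1-36S* treatments was not among the 441, and it turns every single change in that pair. Replicate numbers pair nothing, since each group holds 1 library. Pairing by genotype, tested with limma, called 0 splicing factor genes, also with the exchange (0) and without the *GFI1-36S* pair (0). Over all 9341 genes in the fit these counts were 0, 0 and 5. The median summit of the splicing factor promoters held 122.5 to 251 fragments, which limits how small a change a single gene can show.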

Other observations

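Interferon-stimulated promoters changed in rank by medians of -16.5 for *GFI1-36S*, -25.9 for *-36N* and -24.5 for *-KD* libraries, with 16 of 17, 17 of 18 and 17 of 17 genes lower, against 69.1%, 39.9% and 62.9% of all genes, while the splicing factor medians were 0.803, 1.43 and -0.0372. With the *GFI1-36S* treatments exchanged that median is 16.5, with 1 of 17 lower. Erythroid promoters had medians of -13.3, 1.80 and -16.3, neutrophil promoters -17.8, 5.59 and -15.1, T-cell promoters 28.4, 0.0271 and -0.659, stem and progenitor promoters -33.4, 1.48 and 1.36, and B-cell promoters, with 1 to 4 genes in a pair, -19.8, -1.88 and -4.74. These lists were chosen with earlier results known, and their changes were not tested.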
